A study of Schizosaccharomyces pombe with 26 samples.

Results

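The features described here are the 250 intergenic array features of fission yeast (*Schizosaccharomyces pombe*) with the lowest histone H3 signal over input, out of 4949 intergenic features that are not controls. They were chosen from 5 H3 chromatin immunoprecipitation (ChIP) samples of strains carrying a delta-med15 or a delta-hrp1 deletion. For each spot the background-subtracted ChIP intensity was divided by the background-subtracted input intensity, with both held at 50 scanner units or more. The log2 ratios were averaged by feature and centred on the median of the array. A feature had to lie below 0 in all 5 samples, which held for 652 features or 13.2%, and the 250 with the lowest mean were kept, 5.05% of all. Another 34 features had a mean as low but rose above 0 in at least 1 sample. The low H3 ratios are therefore the choice itself and not a result.

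Each strain was grown to mid-log phase in the rich medium YES, fixed with formaldehyde and sonicated to chromatin of about 600 to 1500 bp. DNA recovered with an antibody to H3 (2 delta-med15 and 3 delta-hrp1 samples) or to the myc tag of a Med15-myc strain (3 samples) was hybridised with input DNA of the same preparation to 2-colour spotted arrays of intergenic regions (IGR), and to arrays of open reading frames (ORF). H3 ChIP of a wildtype strain (2 IGR samples) was used as the deposited ChIP signal alone, without input. The deletion strains were profiled for H3 and the tagged strain for Med15, so no strain has both, and no untagged control was used here. The labels call the experiments independent ChIP-on-chip experiments with dye swaps but do not say whether each had a separate culture. The p-values measure the spread between these samples, which may be partly technical.

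In growing cells, promoters of highly transcribed genes tend to carry a stretch with few nucleosomes, flanked by positioned ones. Mediator is the complex that bridges DNA-bound activators and RNA polymerase II, and Med15 belongs to its tail, the part that contacts activators. Hrp1 is an ATPase of the CHD1 family that remodels nucleosomes. A low ratio of H3 ChIP over input is read as few nucleosomes per copy of DNA, averaged over fragments that are longer than a single nucleosome.

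The IGR features are named after genes. Of the 250 names, 221 matched a single gene of the RefSeq annotation (ASM294v3), 8 matched several and 21 none. The matched names stand for 218 genes, all protein-coding except *prt2*, a long non-coding RNA. Names of the 6 tRNA and 5S rRNA features in the set hold coordinates without a chromosome. For features named after protein-coding genes, neither the coordinates of the spotted DNA nor the side of the gene on which it lies was known. The promoter windows below therefore come from RefSeq and are not the spotted DNA. The windows run from 250 bases before to 50 bases after the annotated gene start, 5′ to 3′ on the strand of the gene. Capitals mark matches, on either strand, to any of 5 motifs. TATAAA is the TATA box that the general transcription machinery binds. CAGTCAC is the core of the HomolD box known from ribosomal protein genes. AACCCT is a box known from histone genes of fission yeast. TGACGT is the core of the site that factors of the ATF/CREB family bind. ACGCGT is the MCB site known from cell cycle genes. The first 6 genes were among the 10 features of the set with the highest mean Med15-myc ratio as scanned. Among all features their ranks for this ratio ran from 4 (*SPAC17A2.10c*) to 29 (*pdc101*). The last 2 are the ribosomal protein features with the lowest H3, added after the values were seen to show the contrast in motifs.
*SPAC17A2.10c*, chrI:3575638-3575937, minus strand: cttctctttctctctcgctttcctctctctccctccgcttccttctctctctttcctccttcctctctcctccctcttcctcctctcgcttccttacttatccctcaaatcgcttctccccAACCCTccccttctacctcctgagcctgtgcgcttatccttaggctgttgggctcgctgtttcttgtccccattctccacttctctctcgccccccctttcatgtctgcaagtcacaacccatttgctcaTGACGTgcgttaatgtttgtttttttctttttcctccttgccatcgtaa
*SPAC27E2.11c*, chrI:4009876-4010175, minus strand: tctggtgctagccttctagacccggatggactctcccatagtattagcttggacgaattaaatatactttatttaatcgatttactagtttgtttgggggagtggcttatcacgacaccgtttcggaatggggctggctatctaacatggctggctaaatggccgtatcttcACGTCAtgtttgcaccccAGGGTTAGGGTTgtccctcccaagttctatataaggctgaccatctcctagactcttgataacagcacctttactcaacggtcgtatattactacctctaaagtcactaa
*psu1*, chrI:1823381-1823680, minus strand: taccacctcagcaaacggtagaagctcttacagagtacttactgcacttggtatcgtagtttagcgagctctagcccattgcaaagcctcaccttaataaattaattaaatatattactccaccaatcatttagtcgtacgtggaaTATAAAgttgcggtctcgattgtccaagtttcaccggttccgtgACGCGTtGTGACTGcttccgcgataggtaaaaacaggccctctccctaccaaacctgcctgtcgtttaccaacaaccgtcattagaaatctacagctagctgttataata
*mae2*, chrIII:277213-277512, minus strand: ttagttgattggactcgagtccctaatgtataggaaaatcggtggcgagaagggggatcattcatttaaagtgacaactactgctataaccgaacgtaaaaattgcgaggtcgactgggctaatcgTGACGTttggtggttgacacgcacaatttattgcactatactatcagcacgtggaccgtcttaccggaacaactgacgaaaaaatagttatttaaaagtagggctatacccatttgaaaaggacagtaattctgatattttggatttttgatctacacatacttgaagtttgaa
*rpn502*, chrI:4910826-4911125, minus strand: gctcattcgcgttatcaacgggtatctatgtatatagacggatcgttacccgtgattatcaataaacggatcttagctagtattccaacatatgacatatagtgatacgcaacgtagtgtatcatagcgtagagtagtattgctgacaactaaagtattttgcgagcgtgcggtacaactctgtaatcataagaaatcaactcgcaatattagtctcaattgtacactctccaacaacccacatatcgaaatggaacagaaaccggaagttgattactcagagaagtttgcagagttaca
*pdc101*, chrI:103548-103847, minus strand: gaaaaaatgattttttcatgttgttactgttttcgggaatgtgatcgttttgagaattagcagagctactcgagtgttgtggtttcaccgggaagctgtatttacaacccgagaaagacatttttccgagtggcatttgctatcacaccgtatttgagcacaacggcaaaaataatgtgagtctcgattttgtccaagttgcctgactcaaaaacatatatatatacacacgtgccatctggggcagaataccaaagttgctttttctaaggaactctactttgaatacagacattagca
*rps2*, chrIII:2095987-2096286, minus strand: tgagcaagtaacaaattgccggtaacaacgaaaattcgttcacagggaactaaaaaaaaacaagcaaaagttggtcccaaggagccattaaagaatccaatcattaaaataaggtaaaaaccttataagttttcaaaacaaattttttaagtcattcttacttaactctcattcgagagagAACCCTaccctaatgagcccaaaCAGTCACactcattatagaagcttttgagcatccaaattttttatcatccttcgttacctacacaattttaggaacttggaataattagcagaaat
*rpl1502*, chrI:2204345-2204644, minus strand: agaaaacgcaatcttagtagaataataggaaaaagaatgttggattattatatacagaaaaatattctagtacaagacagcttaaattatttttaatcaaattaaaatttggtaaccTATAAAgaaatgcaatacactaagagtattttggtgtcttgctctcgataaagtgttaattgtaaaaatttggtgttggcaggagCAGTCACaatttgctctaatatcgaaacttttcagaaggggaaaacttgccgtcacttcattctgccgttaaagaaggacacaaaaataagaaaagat

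The mean log2 ratio of H3 over input among the 250 features ran from -3.65 to -1.27 with a median of -1.67. On a linear scale these are 7.96%, 41.5% and 31.5% of the median feature. The lowest feature carries the name *gpd1*, which the annotation gives both to a glycerol-3-phosphate dehydrogenase and, as a synonym, to *tdh1*, the glycolytic glyceraldehyde-3-phosphate dehydrogenase. Its log2 ratios were -2.31 and -2.94 in delta-med15 and -4.01, -6.67 and -2.33 in delta-hrp1. The samples of the 2 strains overlapped, and delta-hrp1 replicate 2 lay far below the others. The second, *mug106*, read -3.60 and -3.74 in delta-med15 and -4.57, -2.73 and -3.51 in delta-hrp1. It is the annotated neighbour of *gpm1*, the phosphoglycerate mutase gene, which was also among the lowest 15 with a mean of -2.99 ± 0.56 (SD, n = 5). The third, *pdc101*, a putative pyruvate decarboxylase, read -3.10 and -3.26 in delta-med15 and -4.59, -4.27 and -2.60 in delta-hrp1.

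The remaining features of the lowest 15 were SPAP15E9.02c (no matched gene), *SPAC27E2.11c*, *SPAC17A2.11*, *pyk1* (pyruvate kinase), *hsp70* (a name shared by *ssa1* and *ssa2*), *sua1* (sulfate adenylyltransferase, the first enzyme of sulfate assimilation), *adh1* (alcohol dehydrogenase), *SPAC17A2.10c*, *SPAC56F8.15*, *pgk1* (phosphoglycerate kinase) and *SPAC1002.20*. Their means lay between -3.51 and -2.98. Samples were close for *SPAC17A2.10c* (-3.07 ± 0.29, SD, n = 5) and *pyk1* (-3.30 ± 0.43), and far apart for *pgk1* (mean -3.02), whose lowest value was -4.68 and whose highest was -0.89. The median SD over the 5 samples was 0.715 on the log2 scale, and 48 of the 250 features had an SD above 1.

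**Figure D1:**
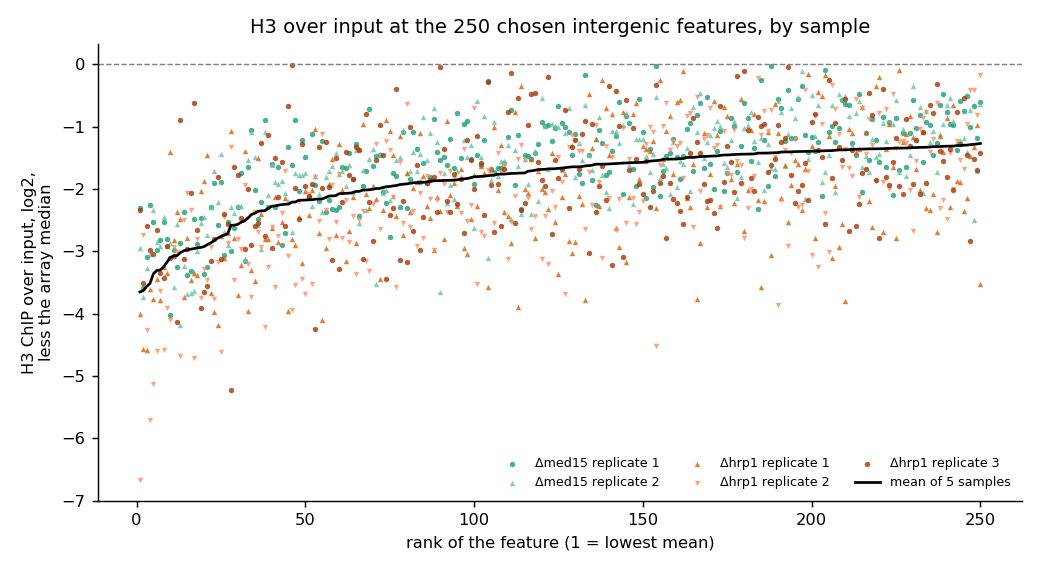
Log2 ratio of H3 ChIP over input, less the array median (vertical axis), of the 250 features ordered by their mean (horizontal axis), with a point for each of the 5 samples and the mean as a line. The mean climbs from -3.65 to -1.27, single samples scatter widely around it, and by the rule no point lies above 0.

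The arrays behind these values agreed moderately within a dye and mostly weakly between dyes, also within a strain. Over all features the Spearman rho between H3 samples was 0.503 to 0.571 for pairs with the ChIP DNA in the same dye. It was -0.123 to 0.469 for pairs in opposite dyes, and the rule joined both dyes. The -0.123 was between delta-hrp1 replicates 1 and 3, and delta-hrp1 replicates 2 and 3 gave 0.140. In delta-hrp1 replicate 1, 18.6% of the ChIP spots of the 250 features lay at or under the floor of 50 units. Among all features of that array it was 11.1%, and in the other 4 samples 0 to 4.2% of the set. Low values in delta-hrp1 replicate 1 are therefore bounds. There 17 of the 250 features had a spot with a ChIP intensity of 0, as had 3 in delta-hrp1 replicate 2. The input of the 250 features was 1.37 to 2.51 times as bright as that of all features in the H3 samples, and their ChIP signal was 0.346 to 0.724 times as bright. In the Med15-myc arrays, which the rule did not use, their input was also brighter, by 1.23 to 1.41 times. What part input brightness or the floor has in the choice of features was not tested. Without delta-hrp1 replicate 1 the rule keeps 210 of the 250, and without delta-hrp1 replicate 3 it keeps 188.

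Of 21 features of glycolysis and fermentation genes, 11 were among the 250 (52.4%, against 5.05% of all features), and 8 of these were among the 24 lowest, beside 16 features of other or uncharacterized genes: *gpd1*, *pdc101*, *pyk1*, *adh1*, *pgk1*, *gpm1*, *eno1* (a name shared by *eno101* and *eno102*, enolases) and *fba1*, the aldolase gene. The aldolase feature had a mean log2 ratio of -2.79 ± 0.93 (SD, n = 5). The others were *hxk2* (hexokinase, -2.0), *gpd1-x2* (a further feature of the name *gpd1*, -1.90) and *pfk1* (phosphofructokinase, -1.84). These counts include *gpd1* and *gpd1-x2*, whose name also belongs to a glycerol-3-phosphate dehydrogenase. Whether these features stand for the glycolytic gene is not known. The median over all 21 features was -1.84, and 15 of the 21 had a mean below 0. Of 7 features of the pentose phosphate pathway, the branch that supplies NADPH and ribose, 2 were included: *gnd1* (phosphogluconate dehydrogenase, -2.36) and *tkt1* (transketolase, -2.07).

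Genes of sulfur assimilation, methionine and one-carbon metabolism followed, with 8 of 18 features (44.4%). Beside *sua1* (-3.18 ± 0.46, SD, n = 5) these were *met14* (adenylyl-sulfate kinase, the next step of the pathway, -1.71), *met17* (homocysteine synthase, -1.87), *met26* (homocysteine methyltransferase, which makes methionine, -2.04), *sam1* (S-adenosylmethionine synthetase, -1.85), *shm1* (serine hydroxymethyltransferase, -1.80), *thf1* (tetrahydrofolate synthase, -1.90) and *met1* (uroporphyrin methyltransferase, -1.37). *met17* read -0.88 and -0.70 in delta-med15 and -2.98, -2.98 and -1.80 in delta-hrp1. Of 17 features of sterol synthesis genes, 3 were included: *erg31*, *erg26* and *erg25*. The sulfur, pentose phosphate and sterol lists were drawn up after the values were seen.

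The ribosome contributed the most features. Of 133 features of ribosomal protein genes, 43 were among the 250 (32.3%), 28 of 78 for the large subunit and 15 of 55 for the small, and 125 of the 133 had a mean below 0. The lowest were *rps2* (-2.53), which read -1.74 and -2.27 in delta-med15 and -3.23, -2.97 and -2.46 in delta-hrp1, and *rpl1502* (-2.41). Next came the features named rpl37, which matched several genes (-2.26), *rpl3601* (-2.24), rpl13a-2 (-2.14) and *rps13* (-2.11). Many of these genes have near-identical copies whose spotted DNA can cross-hybridise, so values of single copies are uncertain. Without delta-hrp1 replicate 3 the rule keeps 20 large-subunit features instead of 28.

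Of 26 features of translation factor genes 5 were included, among them *tif51* (eIF5A, -2.89), ef1-b (-2.27), tef1-e (-2.21) and *tef3* (eEF3, -2.16). The tef1-e samples ranged from -3.94 to -0.01. The members *tif308* (eIF3h, -1.89) and *sce3* (annotated as a translation initiation factor, -1.67) are outside this list. Heat shock and chaperone genes gave 5 of 20 features, *hsp70* (-3.25), *sks2*, a ribosome-associated chaperone (-2.25), *hsp9* (-2.17 ± 0.14, SD, n = 5), *hsp90* (-1.92) and *ssa1* (-1.45). Of 22 tRNA and 5S rRNA features, transcribed by RNA polymerase III, 6 were included, and 21 of the 22 had a mean below 0. The names of these 6 features hold coordinates of a single copy, but which of the many copies hybridised is not known.

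Several lists held few members. Of 27 cell cycle features and of 10 histone features, 0 were included, although all 10 histone features had a mean below 0, the lowest at -1.07. The transcription factor list gave 1 of 32 (*pap1*, an oxidative stress factor). This list is not complete, since the member *sak1* (-1.58), annotated as a DNA-binding transcription factor, is outside it. Chromatin remodellers gave 1 of 16 (*rrp1*), proteasome subunits 1 of 30 (*rpn502*) and mitochondrial ribosomal proteins 2 of 45. Mediator subunits gave 1 of 16, namely *srb7*, which encodes Med21 (-2.06). A further feature, named cnt1 in the files, read -2.20 and -2.96 in delta-med15 and -2.40, -2.92 and -1.27 in delta-hrp1. The features named cnt2 and cnt3 had means of -1.47 and -1.96 but were left out because delta-hrp1 replicate 3 read 0.23 and 1.86. Glucose transport and glucose-repressed genes gave 2 of 13 (*mae2* and *hxk2*), stress response genes 2 of 22 (*tpx1*, a peroxiredoxin, and *pap1*), and cell wall and surface genes 2 of 30 (*psu1* and *gas1*). In all, 95 of the 250 belonged to at least 1 of the 20 lists.

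**Figure D2:**
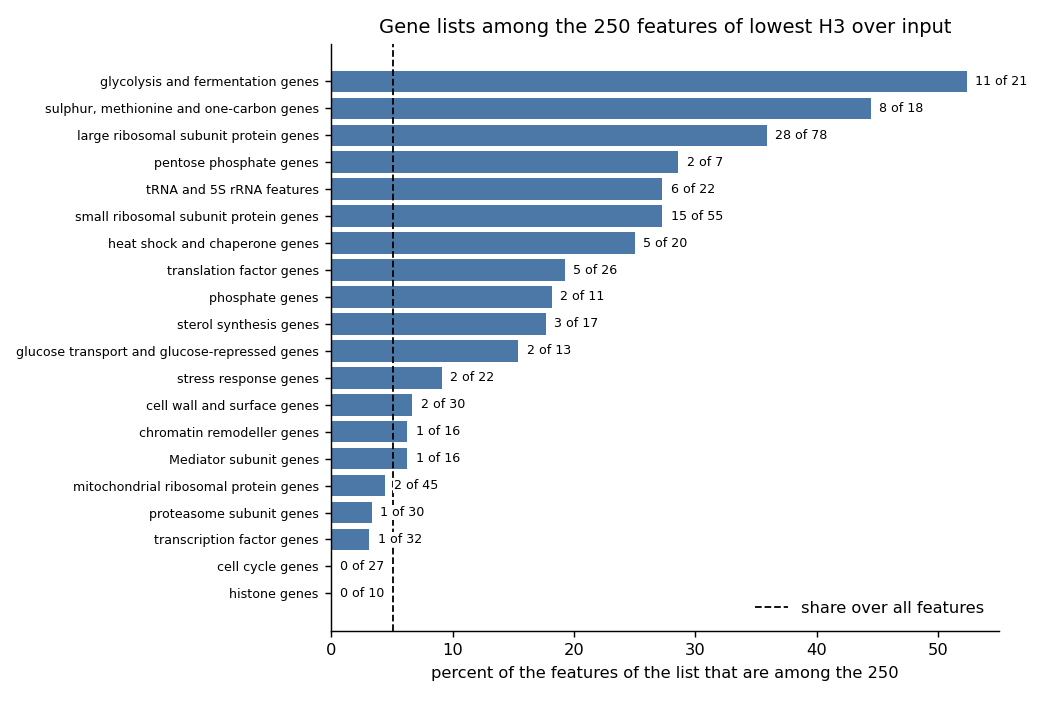
Percent of the features of each gene list that are among the 250 (bars, with counts beside them) and the share over all features (dashed line at 5.05%). Glycolysis and fermentation (11 of 21), sulfur and methionine metabolism (8 of 18) and large-subunit ribosomal proteins (28 of 78) lie farthest to the right. Histone and cell cycle lists are at 0. The glycolysis count includes *gpd1* and *gpd1-x2*, whose name is ambiguous. The sulfur, pentose phosphate and sterol lists were drawn up after the values were seen.

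Med15-myc was the main measurement that did not enter the choice. With intensities as scanned, the median log2 ratio of the 250 features was 0.14, -0.03 and -0.18 in the 3 samples, where the median of all features is 0 by centring. The medians of the 250 thus lay near those of the other features, while single features spread farther: 43 of the 250 were above 0 in all 3 samples (17.2%), against 9.13% of all features, and 37 were below 0 in all 3 (14.8%), against 9.32%. Within the set the values differed by H3 rank. The 25 features of lowest H3 had medians of 1.80, 0.86 and 0.48 in the 3 samples, those of rank 26 to 50 had 0.38, 0.65 and 0.48, those of rank 51 to 100 had 0.19, -0.02 and 0.02, and those of rank 101 to 250 had -0.04, -0.16 and -0.49. The medians of rank 1 to 25 and of rank 26 to 50 were thus above the array median in every sample. The median of the 150 features of highest H3 within the set was below it in every sample. Of these 150 features, 30 were below 0 in all 3 samples. Features above 0 in all 3 samples numbered 14 of the lowest 25 (56.0%), 9 of the next 25, 9 of the next 50 and 11 of the last 150 (7.33%).

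limma, which tested the mean of the 3 samples against 0 over all 4949 features, called 0 features as scanned, 0 of the 250 and 0% overall. At an unadjusted p under 0.05 it gave 30 features with a higher ratio (0.606%), and 20 of these 30 were among the 250. After normexp background correction, an alternative setting, 29 of the 250 were called higher (11.6%), against 1.23% of all features, and 6 were called lower (2.4%), against 1.11% of all. The 29 made up 47.5% of the 61 features called higher anywhere. Of the 29, 19 came from the 50 features of lowest H3. Loess after normexp called 31 of the 250 higher and 7 lower, against 1.6% and 1.27% of all features, and the deposited ChIP channel, which has no input, called 36 higher and 1 lower, against 5.43% and 4.73%. Without replicate 1 the normexp fit called 14 of the 250 higher, without replicate 2 it called 31 and without replicate 3 it called 28. As scanned, replicate 2, the only sample with the ChIP DNA in Cy5, correlated negatively with the others over all features (Spearman rho -0.19 and -0.39); after normexp all 3 pairs were positive (0.13 to 0.34).

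**Figure D3:**
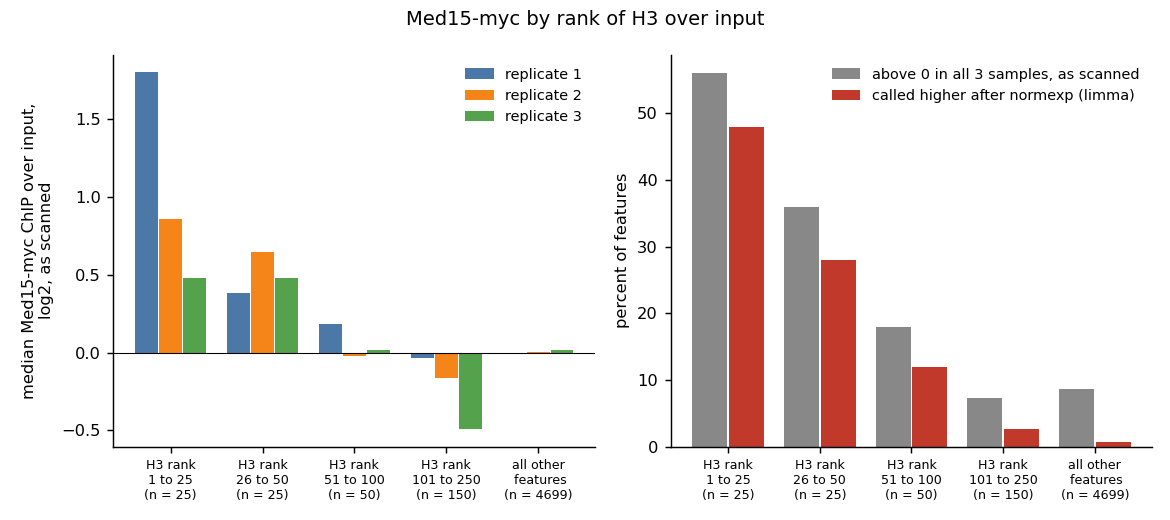
Left, median log2 ratio of Med15-myc ChIP over input as scanned (vertical axis) in each of 3 samples, for features grouped by their rank of H3 over input; right, percent of each group above 0 in all 3 samples (grey) and called higher by limma after normexp (red). Both measures are highest at rank 1 to 25 (56.0% and 48.0%) and fall with rank.

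The highest Med15-myc ratio of the set was that of SPAP15E9.02c, whose name matched no gene, with log2 ratios of 2.83, 4.24 and 1.99 in the 3 samples. A longer-tile feature of the same name read 2.91, 1.07 and 2.65, so both features of this name were above 1 in every sample. *SPAC17A2.10c* read 3.04, 2.0 and 2.84, and its divergent neighbour *SPAC17A2.11* read 2.38, 1.52 and 1.90. Both encode uncharacterized proteins and share a gap of 1421 bp. *SPAC27E2.11c*, annotated as a *Schizosaccharomyces* specific protein, read 2.75, 2.61 and 1.95. For each of these the lowest sample lay above the array median.

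Among metabolic genes, gpd1 read 3.14, 2.16 and 1.67, *pdc101* read 2.82, 1.77 and 1.37, and *mae2*, the malic enzyme gene annotated as malate dehydrogenase, read 2.74, 1.96 and 1.38. After normexp these were 2.72 ± 0.36 (SE, limma adjusted p = 7.36e-08), 2.45 ± 0.36 (adjusted p = 8.04e-07) and 2.60 ± 0.36 (adjusted p = 1.76e-07), with n = 3. As scanned the adjusted p was 1.00 for each. Of the 11 glycolysis and fermentation features in the set, 7 were above 0 in all 3 samples and 7 were called higher after normexp: gpd1, *pdc101*, *adh1*, *pgk1*, *eno1*, *gpd1-x2* and *pfk1*. Here too gpd1 and *gpd1-x2* carry the name shared with a glycerol-3-phosphate dehydrogenase and may not be glycolytic. *adh1* read 2.88, 0.67 and -3.29, so its 3 samples disagreed as scanned. *pyk1* read 1.69, 0.09 and 0.23 and *fba1* read 1.49, 0.78 and -0.83, and neither passed under normexp.

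Of 11 features of phosphate genes 2 were in the set, and both passed under normexp. *prt2*, a long non-coding RNA gene that represses *pho84* in cis, read 3.01, 1.00 and 2.13, and *pho1*, the secreted acid phosphatase gene, read 2.11, 0.18 and 1.63. Their values after normexp were 2.63 ± 0.36 and 2.1 ± 0.36 (SE, n = 3; adjusted p = 1.05e-07 and 3.34e-05). *rpn502*, which encodes a proteasome subunit, read 2.38, 2.02 and 2.29 although its H3 rank was only 160. *psu1*, a cell wall beta-glucosidase gene, read 2.03, 4.01 and 0.09. *sua1* read 2.13, 1.12 and 1.86 and was the only 1 of the 8 sulfur and methionine features to pass under normexp.

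Of the 43 ribosomal protein features in the set, 16 had a mean Med15-myc log2 ratio above 0 and 2 were above 0 in all 3 samples (4.65%, against 9.13% of all features and 12 of all 133 ribosomal protein features, 9.02%). The median Med15-myc log2 ratio was -0.15 for the large and -0.34 for the small subunit features, against -0.05 for the 250. After normexp 1 passed as higher, *rps1602* (1.29, 2.59 and 0.19 as scanned), and 1 as lower, *rpl3202*. *mug106*, with the second lowest H3, had a mean Med15-myc log2 ratio of -0.72 and was not called. The chaperone features also gave 0 calls after normexp. The 6 members called lower after normexp were *mto2* (a gamma-tubulin complex linker, -1.56), *pud1* (-1.43), *ape4* (-1.30), *pap1* (-1.29), *rpl3202* (-1.22) and *nop58* (-1.21).

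The lowest Med15-myc means of the set as scanned rested on replicate 3. They were those of rpl37 (-3.40), *SPAC9.08c* (-3.04), *rpl3002* (-2.96), *hsp9* (-2.88) and *amf1* (-2.48). *SPAC9.08c* read 0.95 and 0.01 in replicates 1 and 2 and -10.1 in replicate 3, where 5 of the 250 features had a spot with a ChIP intensity of 0. Under normexp its mean was 0.78, and that of *hsp9* was 0.19, so their sign turned.

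**Figure D4:**
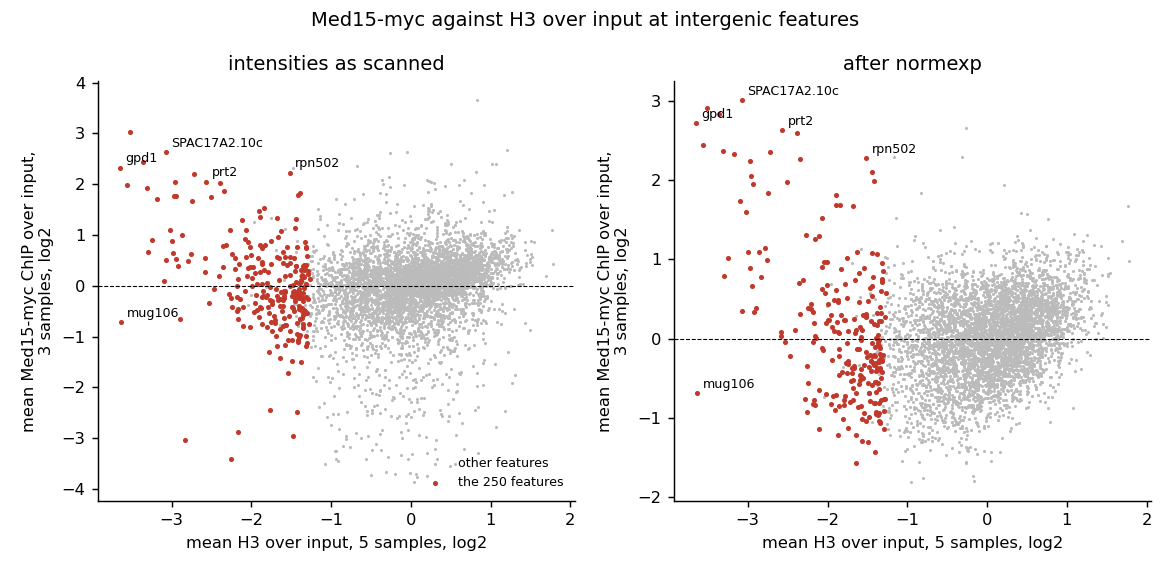
Mean log2 ratio of Med15-myc over input in 3 samples (vertical axis) against mean log2 ratio of H3 over input in 5 samples (horizontal axis) for the 250 features (red) and all others (grey), as scanned on the left and after normexp on the right. The features with the lowest H3 include many of the highest Med15-myc ratios, such as *gpd1* and *SPAC17A2.10c*, while *mug106* has low H3 and a ratio below 0.

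The 2 wildtype samples offer a view of the same features in cells with both genes intact, as ChIP signal without input. Of the 236 features of the set with a value there, 87 were below the array median in both samples (36.9%), against 44.0% of all features. Above it in both were 113 of the 236, against 2142 of all 4871 features. The medians of the set were 0.18 and 0.16 log2 units above the array median. The wildtype H3 ChIP signal of the 250 features was therefore not low. The same quantity in the deletion samples, which the rule used, had medians of -0.46 to -1.63. Wildtype and deletions were not compared here, since the features were picked for low values in the deletions and wildtype has no input to divide by. *pgk1* was low in wildtype as well (-1.43 and -1.42), whereas *mug115*, another of the lowest 25, read 3.22 and 3.45 and *pyk1* read 1.32 and 1.40. Whether the set is poor in nucleosomes in wildtype cells cannot be told from these files.

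On the ORF arrays, hybridised with the same kinds of samples, the coding regions of these genes also read low. For the 207 genes with a matched ORF feature, the median log2 ratio of H3 over input was -0.58, against 0.02 for all 4386 such genes, and the 5 sample medians ran from -0.70 to -0.24. It was below 0 in all 5 samples for 90 of the 207 genes (43.5%), against 13.1% of all. The lowest were *mug114* (-3.89), *SPAC1F8.08* (-3.88), *SPAC27E2.11c* (-3.51), *SPAC56F8.13* (-3.17) and *mug106* (-3.14). *mug114* lies next to *hxk2* and *SPAC1F8.08* next to *pdc101*. Sonicated fragments are long enough to join neighbours, and what part this has in the ORF values was not tested.

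The Med15-myc ratio over these ORF features had a median of 0.09 on the log2 scale, against 0.02 for all, and 35 of the 207 genes were above 0 in all 3 samples (16.9%), against 11.8% of all. limma called 0 of the 210 ORF features as scanned (0% of all). After normexp it called 3 higher (0.144% of all ORF features) and 1 lower (0.308% of all). The 3 were *prt2*, *mug114* and *SPAC56F8.13*. Background subtraction with a floor of 50 gave 1 higher and 0 lower (0.0205% and 0.0821% of all), loess after normexp gave 10 and 7 (0.8% and 1.95%), and the deposited ChIP channel gave 37 and 38 (15.5% and 18.4%), so the ORF count depends on the setting. The *prt2* ORF feature read 2.79, 1.80 and 2.27 in the 3 samples as scanned and reached 2.79 ± 0.20 (SE, n = 3, adjusted p = 0.000304) under normexp, so both features of *prt2* were high. *SPAC17A2.10c*, high over its IGR feature, had an ORF mean of -0.36.

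Genes of the set had long gaps on their 5′ side. The gap to the next gene upstream, long non-coding RNA genes left aside, had a median of 769 bp for 216 protein-coding genes of the set, against 404 bp for the 4309 genes of the other features. It was 1000 bp or more for 78 of the 216 (36.1%) and for 21.3% of the others. The upstream neighbour was divergent for 135 of the 216 (62.5%) and for 53.2% of the others. These are descriptions, since features of neighbouring genes share sequence and fragments. Over all features, mean H3 of neighbours was more alike in divergent pairs (Spearman rho 0.501, n = 1101 pairs) than in convergent pairs (0.099, n = 1106), so the feature of a gene may lie before it, which the files do not state.

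In 18 divergent pairs both genes belonged to the set. They included *SPAC17A2.10c* and *SPAC17A2.11*, *pdc101* and *SPAC1F8.08* (343 bp apart), *psu1* and *SPAC1002.20* (541 bp), *mug114* and *hxk2* (643 bp), *met26* and *SPAC9.08c* (239 bp), the ribosomal protein genes *rps2* and *rps20* (490 bp), and *rps1602* and *rpl13* (102 bp). The features of such a pair are not independent of each other. Over all features there were 1101 divergent, 1106 convergent and 1849 tandem pairs. Convergent pairs with both genes in the set numbered 2 and tandem pairs 13.

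**Figure D5:**
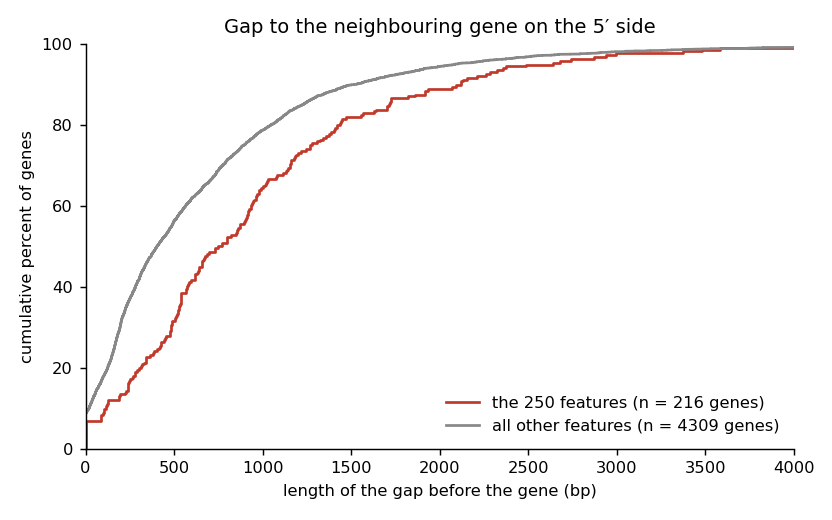
Cumulative percent of protein-coding genes (vertical axis) by the length of the gap to the neighbouring gene on the 5′ side in bp (horizontal axis), for genes of the 250 features (red) and of all other features (grey). The red line lies to the right of the grey one, with medians of 769 and 404 bp.

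The promoters of the set were less rich in A and T than promoters at large. Over the 300-base windows of 217 genes the median A+T content was 63.7%, against 67.0% for 5123 protein-coding genes, and for the genes among the 50 lowest features it was 60.7%. *SPAC17A2.10c*, shown above, had 49%. Runs of 10 A on either strand were found in 5.07% of the windows of the set and 6.64% of all. A TATA box (TATAAA) was found in 35.0% of the set and 48.1% of all, so neither sequence was more frequent in the set.

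CAGTCAC, the HomolD core, was found in 62 of the 217 windows (28.6%) and in 4.70% of all promoters. Of the 37 ribosomal protein promoters in the set 35 held it, as did 88.7% of all 142 ribosomal protein promoters, and so did 15% of the other promoters of the set. Over all features of 1 protein-coding gene, those with the motif had a median H3 log2 ratio of -0.76 (n = 213) and those without 0.03. The members with it had a median Med15-myc log2 ratio of -0.10, and 2 of 62 were called higher after normexp (3.23%), against 18 of 154 members without it (11.7%). Over all features the order was the other way, with a median of 0.07 with the motif and 0.03 without, and 1.41% and 0.994% called higher after normexp.

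TGACGT was found in 25 of the 217 windows (11.5%), against 5.89% of all promoters, and in 21.1% of those of the 50 lowest features. None of the 37 ribosomal protein windows held it. The 25 members with the motif had a median Med15-myc log2 ratio of 0.31 as scanned, against -0.10 for the 191 without, and 6 of the 25 were called higher after normexp (24%), against 14 of 191 (7.33%). Over all features the medians were 0.10 and 0.03, and 4.15% and 0.819% were called higher. Of the 6 windows printed above from the members highest for Med15-myc, those of *SPAC17A2.10c*, *SPAC27E2.11c* and *mae2* hold it. That of *psu1* does not, and those of *rpn502* and *pdc101* hold none of the 5 motifs. AACCCT was found in 13.8% of the windows and 9.72% of all, and ACGCGT in 3.69% and 3.24%. Each motif was searched on both strands, TGACGT overlaps its own reverse complement in a palindromic site, and a match is a string of letters, not a shown binding site.

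Between the deletions, the set read lower in delta-hrp1, with a median of the feature means of -1.88, than in delta-med15, with -1.54. The delta-hrp1 arrays also had the wider spread over all features. Their SD was 1.08 to 1.35 on the log2 scale, against 0.778 to 0.795 for delta-med15. What part this spread has in the difference was not tested, and strain and spread cannot be told apart here. limma with a term for dye called 0 of the 250 features and 0% of all features (lowest adjusted p = 1.00). At an unadjusted p under 0.05 there were 15 of 250, 14 of them lower in delta-hrp1, against 2.12% of all features, where 68 were higher and 37 lower. The contrast uses the 5 samples that chose the set, so neither this count nor its direction is a result about the set. With normexp it also called 0 of the 250, against 0.0404% of all features higher and 0.0202% lower. With the replicate number as a block it called 3 of the 250, against 0.0202% of all features higher and 1.01% lower. They were *SPAC24H6.09*, *SPBC36.03c* and gpd1. Whether the replicate numbers pair these samples is not known. The values of single features are given as a description. The largest falls were *SPAC922.04*, *rpl1502* and *SPAC27E2.03c*, and *SPAC922.04* fell by 2.19 ± 0.69 (SE). *rpl1502* read -1.05 and -1.08 in delta-med15 and -3.31, -3.73 and -2.89 in delta-hrp1. *SPAC27E2.03c* fell by 1.94 ± 0.66 (SE) on the log2 scale. The largest rises were *cox17* (1.56 ± 0.66), *pgk1* (1.19 ± 0.75) and the tRNA feature tRNAAlaanticodonAGC (1.00 ± 0.70).

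At the limit of the set, the last 3 features kept were *ura1* (-1.283), *SPAC6C3.03c* (-1.277) and *sum3* (-1.269), and the first 3 left out were *ubc4* (-1.265), *sfc3* (-1.260) and a glycine tRNA feature (-1.259). The step across the limit is far smaller than the spread between samples, and the limit marks no boundary in the data.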

How the data were processed

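The authors deposited scanner tables whose columns, per the file headers, are median intensities of spots and local backgrounds in both dyes. Each feature has 2 spots, and the dye of the ChIP DNA comes from the labels. The deposited log2 value table holds, per its match to the scanner tables (r of 0.991 or more), the ChIP channel less background without input, with a floor at -6.64. Wildtype values come from this table alone. No label or header read here names the scanner software or the array build.

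Ratios were computed here as in the opening of the report. For Med15-myc, intensities as scanned, without background subtraction, were used, clipped at 1 unit, centred on the array median, and tested with limma 3.58.1 in R 4.3.3 (lmFit, eBayes, two-sided, Benjamini-Hochberg over all features, threshold 0.05), 3 samples against 0. Normexp background correction used an offset of 50. For H3 over input the rule's background subtraction and floor of 50 were kept. The difference between deletions was fitted with strain and dye on 5 samples. Python 3.11.15, pandas 2.3.3 and scipy 1.17.1 did the rest. The limma fits were tested on simulated ratios with independent normal noise, without dye effects or spots lacking signal. The real samples had both, so the simulation does not show how the fits perform on them. The number of arrays limits the precision.

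The 250 features, the gene lists and the tests were chosen with earlier results of these data known. A name that is the symbol of a gene and the synonym of another without its own feature counts as several genes. Named features are the 15 of lowest H3, the 10 highest and 5 lowest for Med15-myc, the normexp calls, up to 4 per list with 3 or more members (other list members were named after their values were seen), 3 on each side of the limit and 3 differences each way. RNA samples were not used here.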

Additional observations from a re-analysis of the deposited data

How the results depend on the processing

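Med15-myc calls depended on background correction. Against 0 as scanned, normexp called 29 of the 250 features higher and 6 lower, loess after normexp 31 and 7, and the deposited ChIP channel 36 and 1, with a median log2 value of 0.36 there against -0.05. With normexp and 1 sample left out, chosen after seeing the data, 14, 31 and 28 were higher and 0 to 14 lower. For the ORF features of these genes, against 0 as scanned, the floor of 50 called 1 higher, normexp 3 higher and 1 lower, loess 10 and 7, and the deposited channel 37 and 38 with a median of 0.0537 against 0.0882. Leaving out a sample under normexp gave 1 to 12 higher, 0 to 9 lower and medians of 0.0552 to 0.117. The cause was not tested.

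The sign of the Med15-myc log2 ratio turned for *SPAC9.08c*, from -3.04 to 0.32 with the floor, 0.78 with normexp, 0.454, 0.838 and 1.051 with normexp and a sample left out, 0.75 with loess, and 1.01 in the deposited channel. It turned for *hsp9*, from -2.88 to 0.19 with normexp, 0.122, 0.203 and 0.26 with a sample left out under normexp, 0.23 with loess and 0.296 in the deposited channel. As scanned with a sample left out, *SPAC9.08c* ranged from -5.04 to 0.48 and *hsp9* from -4.47 to 0.19, and both were above 0 without replicate 3. *amf1* turned from -2.48 to 0.14 with the floor. In wildtype, each sample alone put 44.1% and 44.5% of the features below the median, against 36.9% in both.

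Of the 250 features, the other settings kept 181 (intensities as scanned) to 250 (centring each set of spots). Leaving out a sample kept 188 to 233.

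Same-numbered deletion samples deviated from their group means with r of -0.36 (opposite dyes) and 0.29 (same dye). The delta-med15 group has 2 samples, so their deviations are equal in size and opposite in sign, and each r has a mirror value. The sign of r followed the dye, but mirrored values are not separate evidence. These values cannot tell whether the replicate number pairs samples. The replicate block raised the features called between the deletions from 0 to 3.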
